A study of Mus musculus with 18 samples.

Results

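Fos, Fosb, Jun, Junb, Egr1, Atf3, Ier2, Ier3, Hspa1a and Hspa1b, 10 immediate early and heat shock genes out of 31053 features counted, were followed through single-cell RNA libraries of the mouse mammary gland. The genes were taken as a named list, without a cutoff on measured values, but with earlier results of these data known. Counts of unique molecular identifiers (UMIs) were compared over 18 libraries, each made from the pooled cells of several mice, so that the library and not the cell was the replicate. C57BL/6 mice gave 7 libraries: the E18.5 mammary rudiment and the skin next to it (Lgr5-GFP embryos), the gland at postnatal day 5, the gland before puberty (2.5 weeks), the adult virgin gland (10 weeks) and, from E-cadherin-GFP reporter mice of 5 weeks dissected by hand, ducts and terminal end buds (TEBs). SWISS mice gave 1 adult virgin library at 10 weeks. FVB/NJ mice gave 3 adult virgin libraries at 10 weeks (A10, P7 and D12), 2 of pregnancy day 12.5 (H and G), 2 of pregnancy day 18.5 (F4 and B4), 2 of lactation day 10 (F11 and D6), and a single one after involution. The labels time that last library at 3 weeks after birth, whereas the text of the study counts from weaning. No library had been given a treatment, and adult mice were not staged for estrus. Only these 4 FVB/NJ stages had replicate libraries. No source used here says whether replicates were prepared on separate days. The p-values therefore measure the spread between these pools, with any difference in their preparation or capture included.

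Immediate early genes are transcribed within minutes of a growth factor, a mechanical stimulus or a stress, with no need for new protein, and most of their transcripts are short-lived. Fos, Fosb, Jun, Junb and Atf3 encode subunits of AP-1, a dimeric leucine zipper transcription factor, and Egr1 encodes a zinc finger transcription factor. Hspa1a and Hspa1b encode the inducible HSP70 chaperone, which binds unfolded protein and is transcribed through heat shock factor 1. The same genes are known to be switched on when a tissue is dissociated with enzymes into single cells, and a mammary gland has to be dissociated before it is sorted. How far each gene varied between replicate pools of a stage, against how far it varied between stages, was therefore the question asked of each member. No source used here gives the times of digestion.

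The promoter sequences below show where the heat shock pair and Fos carry known promoter motifs. The pair is shown because its members share nearly all of this sequence but, as described further on, did not move together in every library. RefSeq gave promoters of 300 bases (250 before and 50 from the transcript start at base 251, build GRCm38.p6) for 8 of the 10 members, all but Egr1 and Ier2. Capitals mark TATAAA, the TATA box, in Fos and GAANNTTC, the inverted repeat unit of a heat shock element, in the pair.
Fos, chr12:85473640-85473939, + strand: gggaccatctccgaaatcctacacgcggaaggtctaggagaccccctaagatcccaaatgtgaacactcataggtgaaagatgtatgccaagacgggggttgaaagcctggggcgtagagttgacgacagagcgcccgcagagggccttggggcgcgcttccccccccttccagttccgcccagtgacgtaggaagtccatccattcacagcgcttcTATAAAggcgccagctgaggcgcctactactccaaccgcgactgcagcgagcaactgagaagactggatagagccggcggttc
Hspa1a, chr17:34972107-34972406, - strand: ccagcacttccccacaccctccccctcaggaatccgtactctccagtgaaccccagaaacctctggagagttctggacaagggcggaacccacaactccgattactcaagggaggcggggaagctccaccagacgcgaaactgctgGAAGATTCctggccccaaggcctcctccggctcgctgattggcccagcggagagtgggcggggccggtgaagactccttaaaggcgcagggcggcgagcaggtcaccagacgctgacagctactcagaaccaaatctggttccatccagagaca
Hspa1b, chr17:34959189-34959488, - strand: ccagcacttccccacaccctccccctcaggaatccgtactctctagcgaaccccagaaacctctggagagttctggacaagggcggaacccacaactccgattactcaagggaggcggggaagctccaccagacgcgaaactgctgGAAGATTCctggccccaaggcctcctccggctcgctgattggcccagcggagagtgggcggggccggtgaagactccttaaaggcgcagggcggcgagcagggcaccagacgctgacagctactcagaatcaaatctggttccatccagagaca
The Hspa1a and Hspa1b promoters were identical at 296 of 300 positions (98.7%), and both had the heat shock motif at bases 147 to 154. Of all 32851 promoters of this length, 7.86% held GAANNTTC, 8.52% held TTCNNGAA and 13.6% held TATAAA on either strand. GAANNTTC was in 3 of the 8 member promoters (Jun, Hspa1a and Hspa1b), TTCNNGAA in 0 and TATAAA in 2 (Fos and Junb). The cAMP element TGACGTCA (1.79% of all promoters), the AP-1 site TGANTCA (7.81%) and the CArG box bound by serum response factor (1.63%) were in 0 of the 8 windows. A match is a string of letters and was not read as a bound site. A count of 0 covers the exact strings in these windows only. Variant sites and sites further upstream were not searched, so it does not mean that an element is absent.

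The libraries held 9920346 (P7) to 93234616 (D6) UMIs, and the kept cells had medians of 2498 (P7) to 21609 (TEB) UMIs. Cells were assigned to the basal, luminal progenitor (LP)/alveolar or mature luminal (ML) class by fixed marker genes, in numbers of 302 to 8210 basal, 236 to 5884 LP/alveolar and 94 to 5769 ML cells per library outside the skin. P7 stood apart from the other 17 libraries: its barcodes had 14 bases in place of 16, and its cells had a median mitochondrial share of 0.404% against 1.99% to 7.94% elsewhere. The study names a single version of the capture kit, and whether P7 was captured otherwise is not stated. The spread between adult replicates therefore holds this difference as well as that between pools. Milk transcripts took 72.0% (F11) and 69.5% (D6) of the lactation UMIs. In the 9 staged libraries the endothelial and the immune marker lists each summed to at most 139 in any epithelial class, in counts-per-million (CPM) of the UMIs outside 8 milk genes (milk-free CPM). The fibroblast list summed to 1040 in the ML class of P7 against 102 in A10 and 30.6 in D12, and to 171 (D12) to 968 (F4) in basal cells. Markers of the other epithelial classes were present too, at levels that differed between libraries. The LP/alveolar list in basal cells summed to 282 (A10) to 1034 (P7) in the adult, 1493 in F4, 1268 in B4, 3514 in F11 and 922 in D6, beside basal lists of 13483 to 47943. The basal list in LP/alveolar cells summed to 234 (A10), 103 (P7) and 1108 (D12) in the adult, 1129 (H) and 1542 (G) at day 12.5, 1800 (F4) and 562 (B4) at day 18.5, and 518 (F11) and 98.3 (D6) in lactation, beside LP/alveolar lists of 2294 (D12) to 46528 (P7). In ML cells the LP/alveolar list summed to 2248 (F11) and 2099 (D6) beside ML lists of 4607 and 3102, and the basal list reached 1769 in G beside an ML list of 2652. Their part in the class comparisons was not tested. The library labelled as skin held 8965 fibroblast cells, 7 epidermal cells and 3 basal cells by the same markers among 9025, so its epithelial classes were not used. No pair of libraries shared more than 2.41% of the barcodes of the smaller one. Counts of H and G lay closer to each other than those of any other replicate pair, but differed beyond sampling noise (chi-square per degree of freedom 11.6 for basal, 18.0 for LP/alveolar and 2.8 for ML), so both were counted. These values cannot show whether the 2 were prepared separately. Days of preparation and times of digestion are not given for the other FVB/NJ stages either. Stage and preparation therefore cannot be told apart at day 12.5 or at the other stages.

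Among the 4 FVB/NJ stages, the range between stage means was wider than the widest range between replicates for 7 of 10 members in basal cells (33.1% of all genes tested), 8 of 10 in LP/alveolar (48.5%) and 6 of 10 in ML cells (36.4%). Without P7 it was wider for 9 of 10 members in basal cells (6712 of 13376 genes), 8 in LP/alveolar (9967 of 13673) and 7 in ML cells (4597 of 8548). With P7 these genes were 4459 of 13468, 6708 of 13839 and 3218 of 8849. In LP/alveolar cells the share of all genes thus rose without P7 while the members' count did not. Ranges were taken on log2 CPM with TMM scaling, which sets libraries on a common scale by their shared genes. Each class was scaled in its own fit, so the CPM values by stage below compare libraries within a class and not classes. In the joint fit of the adult classes, for example, A10 Fos was 2495 in basal and 4159 in LP/alveolar cells. The median ratio of the range between stages to the range between replicates was 1.24 for the members against 0.733 for all genes in basal cells. It was 1.59 against 0.974 in LP/alveolar cells and 1.28 against 0.803 in ML cells. The members' median range between stages was wider than that of all genes in each class (log2 1.53 against 1.01 in basal, 2.02 against 1.24 in LP/alveolar and 1.68 against 1.09 in ML cells). Their median range between replicates was narrower than that of all genes in LP/alveolar cells (1.12 against 1.27) and wider in basal (1.41 against 1.35) and ML cells (1.42 against 1.35). In edgeR's quasi-likelihood F-test over the 4 stages, Atf3 was called in basal cells (adjusted p under 0.05), where 5.98% of 13468 genes were called. Fos, Jun, Ier3 and Hspa1a were called in LP/alveolar cells, near the background share of 30.3% of 13839 genes. Atf3, Ier3 and Hspa1a were called in ML cells, against 8.24% of 8849 genes. All 10 members passed the filter on low counts in each class.

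**Figure D1:**
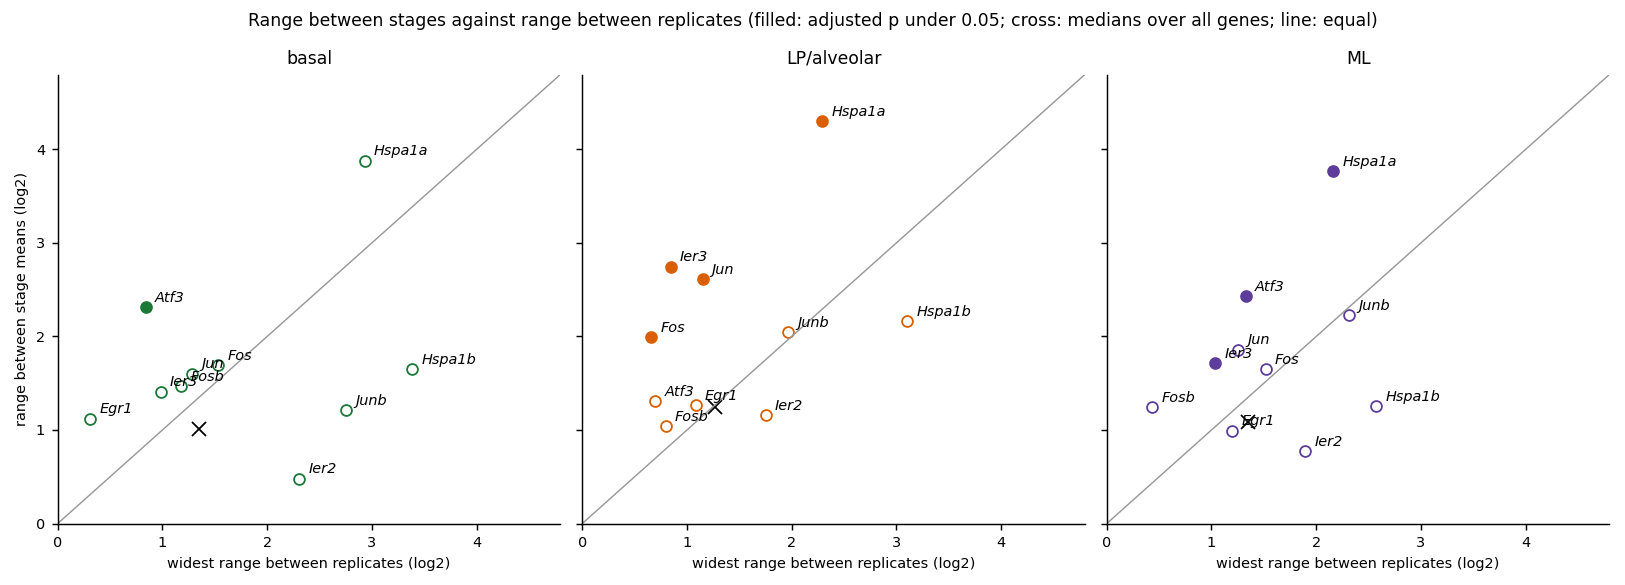
Widest range between replicate libraries (x axis, log2) against the range between the 4 FVB/NJ stage means (y axis, log2) for the 10 members in each class, from TMM-scaled CPM; filled points had an adjusted p under 0.05, the cross marks the medians over all genes and the line marks equality. Above the line lay 7 of 10 points for basal, 8 for LP/alveolar and 6 for ML cells.

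Fos, the founding AP-1 subunit, showed different orders of stages in basal and luminal cells. In basal cells its CPM was 2330.1, 6750.4 and 3067 in the adult libraries A10, P7 and D12, 2611 and 2751 at pregnancy day 12.5 (H and G), 6455 and 5036 at day 18.5 (F4 and B4), and 8079 and 9280.3 in lactation (F11 and D6). P7 lay above both late pregnancy libraries, the stage range was 1.69 against a replicate range of 1.53 on the log2 scale, and the test gave an adjusted p of 0.361. In LP/alveolar cells Fos stood at 2112, 2693 and 2909 in the adult, 623 and 656 at day 12.5, 1626 and 1029 at day 18.5, and 2122 and 1899.5 in lactation. Here the adult and day 12.5 libraries did not overlap, the stage means spanned 3.99-fold against 1.58-fold between the farthest replicates, and the adjusted p was 0.0491. This LP/alveolar call was lost without any 1 of B4, D12, D6, F11, F4, G or H (adjusted p 0.0627 to 0.317), with at least 1000 genes per cell (0.101), with no low-count filter (0.0857) and with no class gate (0.479). ML cells had 2394, 5249.6 and 1833 in the adult, 802 and 1025 at day 12.5, 1291 and 1528 at day 18.5, and 2509 and 2804 in lactation (adjusted p 0.25).

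Jun, the partner of Fos in AP-1, was called in LP/alveolar cells. Its CPM there was 793, 1759 and 1102 in the adult, 184 and 194 at day 12.5, 668 and 372 at day 18.5, and 609.8 and 734 in lactation. The 3 adult libraries were the highest of the 9 and the 2 day 12.5 libraries the lowest, a 6.11-fold span between stage means against 2.22-fold between replicates (adjusted p 0.0178; without G 0.132, without H 0.140 and with no class gate 0.123). In basal cells the order was another, with 661, 1611 and 1188 in the adult, 738 and 785 at day 12.5, 1937 and 1616 at day 18.5, and 2223 and 2400.3 in lactation (adjusted p 0.251). Lactation lay above every adult library in basal cells and below every adult library in LP/alveolar cells. With library totals in place of TMM scaling, the all-gene median of LP/alveolar cells in lactation lay 2.49 below the adult on the log2 scale, so changes there are relative to TMM scaling.

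Fosb and Junb, the other FOS and JUN subunits, were not called in any class. Junb was the member with the widest spread between adult replicates after the heat shock pair in basal cells: its CPM was 1849 in A10, 11815 in P7 and 1747 in D12, a span of 6.76-fold. The other 6 libraries lay between 1405 (G) and 3155 (B4), so P7 alone stood far above the rest. P7 was also the highest of the 9 libraries for Junb in LP/alveolar cells (4153, others 413 to 1186) and in ML cells (5164, others 399.6 to 1267). Fosb varied little between replicates in ML cells, with 851, 1103 and 816 in the adult, 379 and 395 at day 12.5, 812 and 899 at day 18.5, and 697 and 763 in lactation. Its stage range there was 2.86 times the replicate range, with no overlap between day 12.5 and any other stage, but the test gave an adjusted p of 0.314.

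Atf3, a stress-induced repressor that pairs with JUN proteins, was called in basal and ML cells with different high stages. In basal cells its CPM was 458, 777 and 437 in the adult, 318 and 294 at day 12.5, 542 and 302 at day 18.5, and 1507 and 1536 in lactation. Both lactation libraries lay above all others, and the stage means spanned 4.97-fold against 1.79-fold between replicates (adjusted p 0.0448). In ML cells the adult was highest, with 916, 1609 and 1102, against 216 and 219.9 at day 12.5, 407 and 260.2 at day 18.5, and 777 and 309 in lactation (adjusted p 0.0492). Both calls were narrow. The basal one was lost without any 1 of B4, D12, D6, F11, F4, G or H (0.0605 to 0.235), and the ML one without any 1 of A10, B4, D12, F4, G or H (0.0599 to 0.231). Both were also lost with library totals (0.142 and 0.0502), with at least 1000 genes per cell (0.189 and 0.0914) and with no class gate (0.247). The limit of 1000 genes left 32 of 896 basal cells in F11.

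Egr1 was the steadiest member in basal cells. Its CPM was 811, 797 and 866 in the adult, 963 and 1062 at day 12.5, 1608 and 1994 at day 18.5, and 1663 and 1908 in lactation. All 4 late pregnancy and lactation libraries lay above all 5 adult and day 12.5 libraries, and the 3 adult pools, P7 included, stood within 1.09-fold of each other. The stage range was 1.12 against 0.31 between replicates, the highest ratio among the members at 3.61, although the unadjusted p of 0.0485 did not hold after adjustment (adjusted p 0.232; without P7 0.0339). In LP/alveolar cells P7 (245) was lowest with H (240.1) and G (250.2), in ML cells P7 was lowest of all (223), and the ML range between stages (0.99) was narrower than that between replicates (1.20).

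Ier3, an early response gene that modulates cell survival, held its LP/alveolar call best. Its CPM there was 719.7, 1011 and 563 in the adult, 107 and 115 at day 12.5, 364 and 314 at day 18.5, and 247 and 224 in lactation. The 4 stages did not overlap, the stage means spanned 6.71-fold against 1.80-fold between replicates, and the adjusted p was 0.00407. It stayed under 0.05 in 15 of 16 alternatives, the exception being the sum over all cells with no class gate (0.0809). In ML cells the adult values of 290.1, 317 and 230.0 lay above the other 6 libraries (58.7 to 121; adjusted p 0.0480, lost without any 1 of A10, B4, D12, D6, F4, G or H at 0.0751 to 0.176, with the larger gate lead at 0.0522, with at least 1000 genes per cell at 0.0571 and with no gate). Ier2, a nuclear early response protein, was not called in any class, and its replicate range was wider than its stage range in each of them. Basal Ier2 was 286 in A10, 1417 in P7 and 526 in D12, and 1188 in F11 against 399.7 in D6.

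Hspa1a had the widest range between stages of any member in each class and also wide ranges between replicates. In LP/alveolar cells its CPM was 91.7, 177 and 234 in the adult, 8.18 and 8.64 at day 12.5, 179.8 and 36.6 at day 18.5, and 79.4 and 349.9 in lactation. The day 12.5 libraries lay below all others, giving a 19.7-fold span of stage means (adjusted p 0.0190; without G 0.122 and without H 0.127), while F4 and B4 differed 4.90-fold. In ML cells it was 122, 548 and 157 in the adult, 15.1 and 16.4 at day 12.5, 105 and 54.7 at day 18.5, and 106 and 269 in lactation (adjusted p 0.0308, lost without any 1 of B4, D6, F4, G or H at 0.0520 to 0.197). Basal cells had 101, 772 and 580.2, then 23.5 and 24.7, 334 and 172, and 133 and 398, with an adjusted p of 0.0583. Hspa1b was not called in any class and its replicate range exceeded its stage range in each. In basal cells it was 38.6 in A10, 5.63 in P7 and 60.5 in D12, so P7 held the highest Hspa1a and the lowest Hspa1b of the 9 libraries. The 2 genes lie 9951 bases apart and share 58.8% (Hspa1a) and 62.3% (Hspa1b) of their 50-base windows, but 0% in the last 500 bases, where a 3-prime library reads. How the counting treated reads that match both was not stated. Such reads would come from outside the last 500 bases, and their number was not measured. How uncertain this leaves single values of the pair is therefore open.

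**Figure D2:**
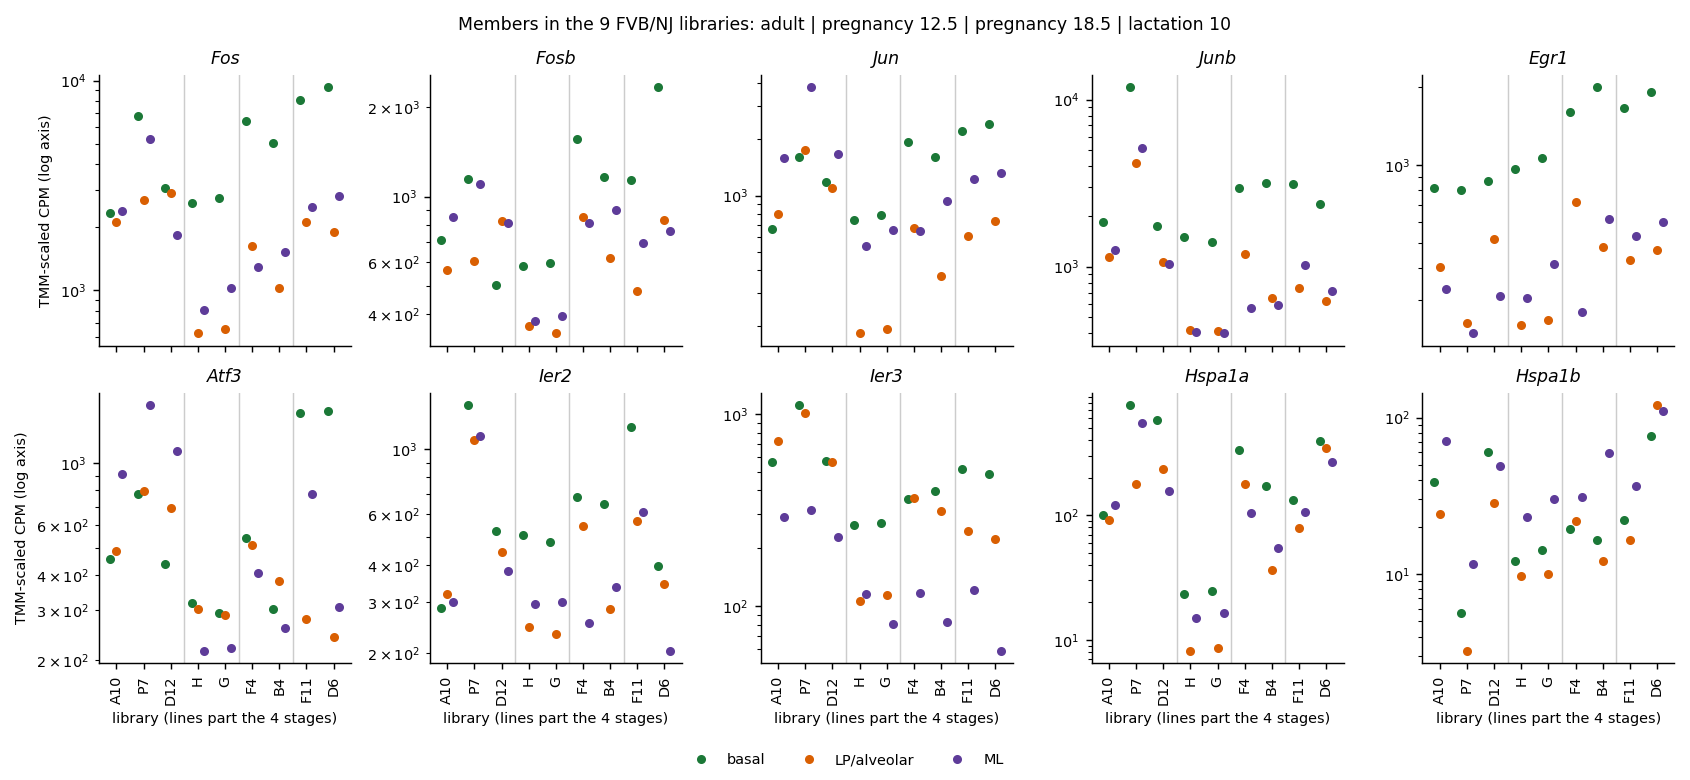
Level of each member in TMM-scaled CPM (y axis, log scale, own range per panel) in the 9 FVB/NJ libraries (x axis; lines part the 4 stages) for the basal, LP/alveolar and ML classes, each class scaled in its own fit. Hspa1a was lowest in H and G in all 3 classes, while P7 held the highest Junb in all 3 and the lowest Hspa1b in all 3. Heights compare libraries within a class and not classes.

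Pregnancy day 12.5 was the lowest of the 4 stages for 9 of 10 members in basal cells, 7 of 10 in ML cells and, with TMM scaling, 9 of 10 in LP/alveolar cells, but for 1 of 10 in LP/alveolar cells when library totals were used. Over all genes tested, day 12.5 was lowest for 20.1% (basal), 23.3% (ML) and 17.6% (LP/alveolar). The exceptions with TMM scaling were Egr1 in basal cells (lowest in the adult), Atf3 in LP/alveolar cells (lowest in lactation), and Egr1, Ier2 and Ier3 in ML cells. The highest stage split by class. Lactation was highest for 6 of 10 members in basal cells, whereas the adult was highest for 6 of 10 in LP/alveolar and 8 of 10 in ML cells, against 26.2%, 27.2% and 32.4% of all genes. With library totals 7, 6 and 7 of 10 members had their highest stage unchanged.

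The adult held the widest replicate range for 8 of 10 members in basal cells, 7 in LP/alveolar and 7 in ML cells. It also did so for 63.0%, 78.7% and 55.0% of all genes, and it had 3 libraries where the other stages had 2. A10 and P7 differed by over 2-fold in 6 members in basal cells (42.3% of all genes), 4 in LP/alveolar (44.5%) and 6 in ML cells (45.8%). The sign of that difference was the same for 10 of 10 members in each pair of classes, as it was for 81.2% to 86.9% of all genes. Across the other pairs this count ran from 3 to 10. P7 and D12 had the same sign for 7 (basal and LP/alveolar), 10 (basal and ML) and 7 (LP/alveolar and ML) of 10 members, H and G for 9, 7 and 6, and F11 and D6 for 8, 9 and 9, where 53.2% to 81.0% of all genes did. A10 and D12 had the same sign for 7, 5 and 6 (69.4%, 73.5% and 70.8% of all genes), and F4 and B4 for 7, 4 and 3 (68.0%, 67.5% and 67.4%). F4 exceeded B4 for 10 of 10 members in LP/alveolar cells (48.7% of all genes), 7 in basal (49.3%) and 3 in ML cells (49.2%), and the 2 differed by over 2-fold in 1, 0 and 1 members (8.73%, 9.01% and 11.2% of all genes). H and G differed by over 2-fold in 0 members in each class, where 0.832%, 1.0% and 8.42% of all genes did. F11 and D6 did so in 4 members in basal cells (31.5%), 2 in LP/alveolar (16.6%) and 5 in ML cells (33.0%). Without P7, 8 members were called in basal cells, 8 in LP/alveolar and 5 in ML cells, in place of 1, 4 and 3. Calls over all genes rose as well, to 1786 of 13376 in basal, 6098 of 13673 in LP/alveolar and 1275 of 8548 in ML cells, from 806 of 13468, 4199 of 13839 and 729 of 8849. The part of its depth, barcode length and fibroblast marker level in these values was not tested.

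Within adult glands the 3 classes of a library came from 1 cell suspension and shared its digestion and capture. Basal cells were compared with LP/alveolar cells in the 5 adult libraries (3 FVB/NJ, C57BL/6 and SWISS) with the library as a block in edgeR. Higher calls in basal cells were 0 of 10 (25.1% of all 13816 genes) and lower calls 5 of 10 (23.5%). Atf3 was lower by a log2 difference of -1.24 (SE 0.13, adjusted p 4.97e-06), Jun by -0.94 (0.18, 0.000773), Fosb by -0.90 (0.21, 0.00311), Ier2 by -0.78 (0.14, 0.000560) and Ier3 by -0.63 (0.21, 0.0234). Atf3, Jun, Ier2 and Ier3 were lower in basal cells in 5 of 5 libraries. Ier3 lost its call without A10 (0.129), D12 (0.0831) or P7 (0.0537). With all 10 FVB/NJ libraries in place of the 5 adult ones, 3 members were called higher in basal cells and 1 lower. Fos (0.74, adjusted p 0.00459), Junb (0.75, 0.000570) and Egr1 (0.78, 0.000314) were the higher ones and Hspa1b (-0.47, 0.0283) the lower one, while Jun turned to 0.42 (0.142).

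Against ML cells, basal cells had higher Egr1 (log2 difference 1.49, SE 0.19, adjusted p 2.27e-05), Ier3 (1.31, 0.21, 0.000124) and Junb (0.82, 0.17, 0.000921). Basal Atf3 (-0.97, 0.13, 2.69e-05) and Jun (-0.86, 0.18, 0.00120) were lower, so 3 members were higher (31.5% of all genes) and 2 lower (30.2%), near the background. LP/alveolar cells exceeded ML cells for 6 members (21.9% of all genes higher, 21.8% lower) and lay below them for 0. Ier3 differed most (1.94, SE 0.22, adjusted p 1.23e-05), then Egr1 (1.44, 0.19, 6.31e-05), Ier2 (1.04, 0.14, 7.95e-05), Junb (0.80, 0.17, 0.00188), Fos (0.79, 0.26, 0.0247) and Fosb (0.71, 0.21, 0.0139). Each of these 6 was higher in 5 of 5 libraries. Fos lost its call without A10 (0.0675), D12 (0.126) or C57BL/6 (0.104) and with at least 1000 genes per cell (0.119), and Fosb without C57BL/6 (0.0946). In the 5 adult libraries with the block, neither Hspa1a nor Hspa1b was called in any of the 3 contrasts. Of 12 alternatives, Hspa1a was called in 0 (basal minus LP/alveolar), 1 (basal minus ML) and 1 (LP/alveolar minus ML), and Hspa1b in 1, 3 and 0. Without the library block 1 member was called between basal and LP/alveolar cells and 2 in each of the other contrasts.

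Against at least 1 luminal class, the order for Jun, Fos and Atf3 in most adult libraries was not that of pregnancy and lactation. For each FVB/NJ library the basal level was divided by the luminal level of the same suspension, both in milk-free CPM. These ratios carry no TMM scaling, and the share of all genes that turned or did not overlap was not counted. The ratio of basal to LP/alveolar Jun ran from 0.526 to 0.630 in the 3 adult libraries and from 1.99 to 3.34 in the 6 pregnancy and lactation libraries, with no overlap. For Fos it ran from 0.616 to 1.57 in the adult and from 2.54 to 4.30 in pregnancy and lactation, again with no overlap. The ratio of basal to ML Atf3 ran from 0.435 to 0.543 in the adult and from 1.15 to 5.90 in pregnancy and lactation. Each of these turned from lower in basal cells in 3, 2 and 3 adult libraries to higher in 6 of 6. Against the other luminal class only Jun did so, with basal above ML cells in 0 of 3 adult and 6 of 6 pregnancy and lactation libraries. Basal Fos exceeded ML Fos in 3 of 3 and 6 of 6, so its order did not change. Basal Atf3 exceeded LP/alveolar Atf3 in 0 of 3 and 2 of 6. Counts over all 10 members overlapped. Basal exceeded LP/alveolar cells for 2 (D12) to 6 (P7) members in the adult. They did so for 6 (F4) to 9 (F11 and D6) in pregnancy and lactation.

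The change of the class difference itself was tested in the 9 libraries with the library as a block, as pregnancy and lactation averaged against the adult; this test was chosen after the data were seen. The basal minus LP/alveolar difference rose for 6 of 10 members and fell for 0, where 9.26% of all 15137 genes rose and 10.5% fell. With library totals in place of TMM scaling, 8 members rose, as did 6162 of the 6423 genes called. With TMM scaling the rise was largest for Jun (log2 2.01, SE 0.25, adjusted p 1.70e-05) and Fos (1.69, 0.30, 0.000481), followed by Atf3 (1.16, 0.26, 0.00308), Ier3 (0.96, 0.24, 0.00809), Junb (0.95, 0.24, 0.00822) and Fosb (0.89, 0.29, 0.0360). The basal minus ML difference rose for 5 (6.68% of all genes rose, 4.82% fell): Atf3 (2.0, 0.26, 4.48e-05), Jun (1.87, 0.26, 6.94e-05), Fos (1.5, 0.30, 0.00232), Junb (1.22, 0.24, 0.00237) and Fosb (1.15, 0.29, 0.0129). Between LP/alveolar and ML cells 1 member, Atf3, rose (0.85, 0.26, 0.0253; 12.1% of all genes rose and 6.76% fell), and library totals turned it to -0.34. That call held in 6 of 13 alternatives and was lost without A10, P7, H, G or B4 (adjusted p 0.0675 to 0.0949) and with at least 1000 genes per cell (0.0514). Fos and Jun held both basal calls in 13 of 13 alternatives, those that left out each library among them. Against LP/alveolar cells Fosb lost its call without A10, B4, D12, F4, G or H (adjusted p 0.0630 to 0.318), Junb without A10 (0.0613) or D12 (0.0558) and Ier3 without A10 (0.0506). Against ML cells Fosb lost its call without A10 (0.0599) and with library totals (0.0890). Of the 6 calls against LP/alveolar cells, 2 (Fos and Jun) held when cells needed at least 1000 detected genes. That limit left 32 of 896 basal cells in F11 and 2082 of 5302 in F4. Hspa1a, Hspa1b, Egr1 and Ier2 were not called in any of the 3 comparisons.

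**Figure D3:**
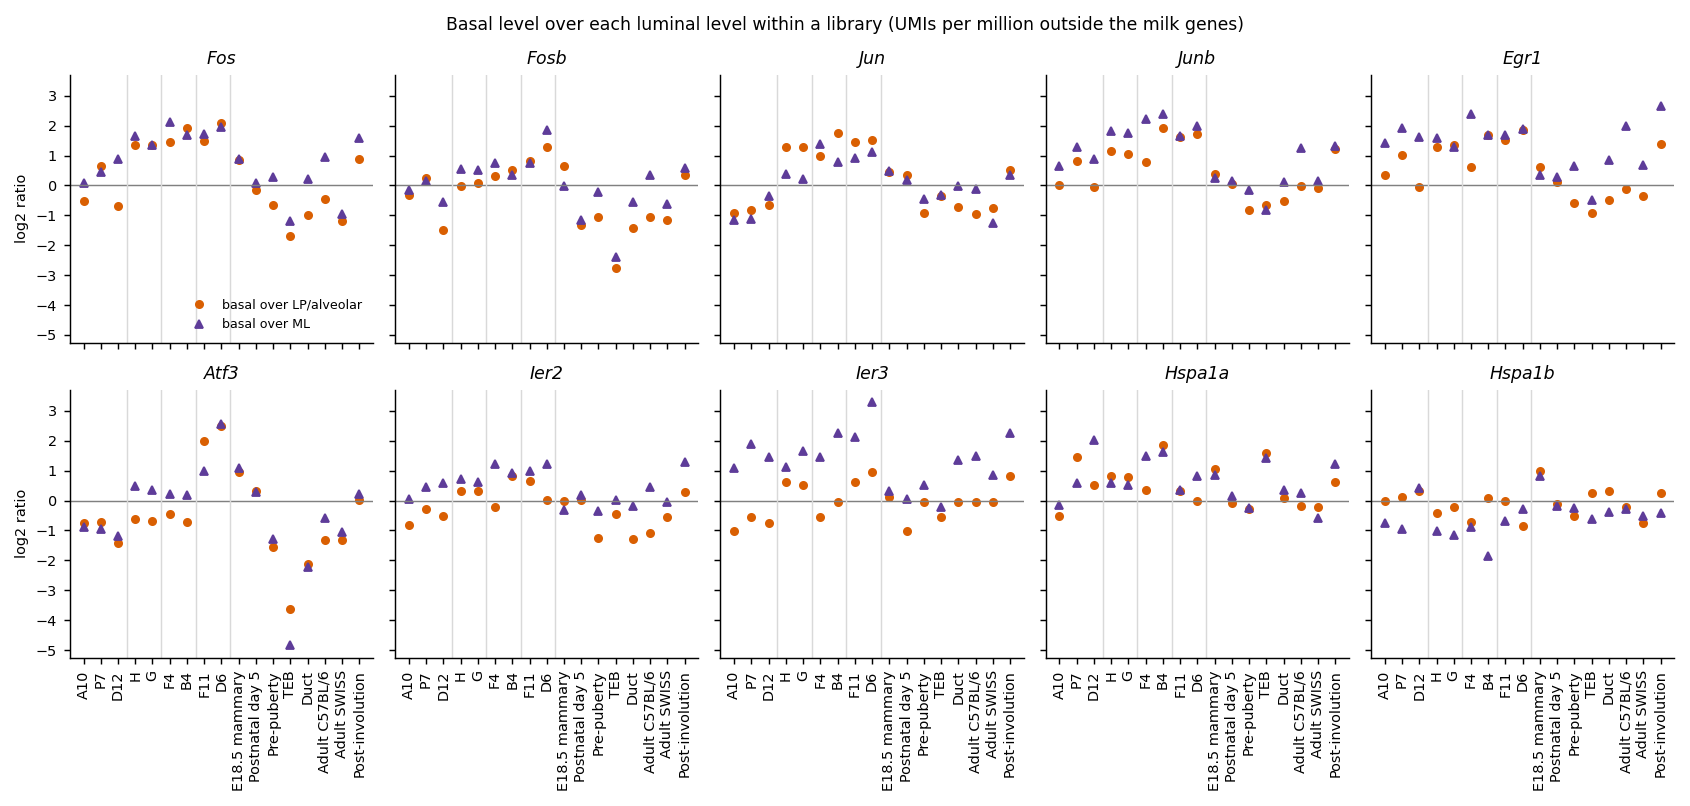
Level in basal cells over that in LP/alveolar (circles) and ML (triangles) cells of the same library, as a log2 ratio (y axis) of milk-free CPM, for the 9 staged FVB/NJ libraries and the 8 single libraries (x axis); lines part the FVB/NJ stages. Basal to LP/alveolar Jun lay below 0 in A10, P7 and D12 and above 0 in the 6 pregnancy and lactation libraries; the luminal classes of E18.5 mammary held more basal markers than their own.

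The single libraries had no replicates, so their values carry no test. The share of all genes higher in basal than LP/alveolar cells was not counted in them. A shift of the whole library therefore cannot be told apart from one of the members in the class counts that follow. The post-involution library had higher levels in basal than LP/alveolar cells for 10 of 10 members (median ratio 1.49). Postnatal day 5 did so for 5 of 10 (0.979), with basal and LP/alveolar marker sums of 1122 and 1221 in its LP/alveolar class, while pre-puberty, adult C57BL/6 and adult SWISS did so for 0 of 10 (medians 0.602, 0.798 and 0.639) and TEB and duct for 2 of 10 each. In E18.5 mammary the cells assigned to LP/alveolar held more basal than LP/alveolar markers (785 against 536) and those assigned to ML more basal than ML markers (997 against 408). The names of these 2 classes were therefore not borne out in the embryo, and its ratios (9 of 10 members higher in the basal class, median 1.55) are not a comparison of basal with luminal cells. Basal Fos after involution was 11517 milk-free CPM, the highest of 17 libraries, against 2259 in A10, 8371 in P7 and 3332 in D12. Of the 10 members 9 lay 2-fold or more above A10 in basal cells (12% of all genes), 5 above D12 (10.4%) and 2 above P7 (22.7%), while 3 lay 2-fold or more below P7 (21.6%). The median ratio over the members was 2.89 to A10, 2.02 to D12 and 1.19 to P7. In LP/alveolar cells 0 members lay 2-fold or more above A10 (7.45% of all genes) or D12 (10.4%), and 1 lay 2-fold or more below each (4.17% and 11.9%), with median ratios of 1.62 and 0.940, while 2 lay above P7 (23.8%) and 4 below it (22.6%), with a median of 0.759. In ML cells 0 lay 2-fold above A10 (11.3%), 2 above D12 (9.74%) and 1 above P7 (27.9%), while 4 lay 2-fold or more below P7 (22.4%; median ratio 0.533). The study prepared one FVB/NJ adult beside this library, and no source used here says which of the 3 it was.

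Adult C57BL/6 and SWISS glands were prepared together, and the members differed between them mainly in basal and LP/alveolar cells. All 10 members were higher in C57BL/6 in basal, LP/alveolar and ML cells, by 2-fold or more in 8 (15.8% of all genes), 8 (12.2%) and 1 (13.4%), the last near the background. The share of all genes higher by any amount was not counted. A shift of the whole library therefore cannot be told apart from one of the members in the count of 10. Basal Fos was 6083 against 1155 milk-free CPM, a ratio of 5.27 with a 95% exact interval of 5.19 to 5.34 that covers counting error only. LP/alveolar Fos was 8245 against 2649 (3.11, 3.08 to 3.15). In basal cells Hspa1a followed at 112 against 30.1 (3.72, 3.38 to 4.10) and Fosb at 1773 against 606 (2.93, 2.86 to 2.99). In ML cells the median ratio over the members was 1.29, against 2.47 in basal and 2.48 in LP/alveolar cells. Strain and pool cannot be told apart with 1 library each.

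TEBs and ducts were also prepared together, and 7 members were 2-fold or more lower in TEB basal cells (10.6% of all genes), 3 in LP/alveolar (3.99%) and 2 in ML cells (4.39%). Basal Atf3 was 52.0 in TEBs against 252 in ducts, 4.85-fold lower (exact interval 4.35 to 5.40), and basal Fosb was 121 against 474 (3.91-fold, 3.64 to 4.20). Basal Fos was 1229 against 3349 (2.72-fold, 2.66 to 2.79). Hspa1a was lower in TEBs in LP/alveolar (42.9 against 265) and ML cells (49.1 against 219) as well. TEB cells were the deepest, with a median of 21609 UMIs against 14096 in ducts. The part of that difference was not tested. The pre-puberty library was prepared with the C57BL/6 adult and compared with it. Members over 2-fold either way were 4 in basal cells (32.9% of all genes), 4 in LP/alveolar (23.8%) and 2 in ML cells (30.9%). All 4 were lower in basal and in LP/alveolar cells, where 14.3% and 12.9% of all genes were 2-fold or more lower. The 2 in ML cells were higher, as were 14.2% of all genes. Jun, Junb, Atf3 and Ier2 were the 4 lower ones in both basal and LP/alveolar cells, and Fos and Egr1 were higher in ML cells (7282 against 3182 for Fos).

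Over all kept cells the 18 libraries spanned 39.3-fold for Hspa1a, from 16.9 (H) to 666 (P7) milk-free CPM, and 29.2-fold for Junb, from 322 (E18.5 mammary) to 9415 (P7). Fos spanned 19.5-fold, from 464 (E18.5 mammary) to 9044 (pre-puberty), and Ier3 5.31-fold. E18.5 mammary was the lowest library for 4 members and H for 3, while P7 was the highest for 4 members and among the 3 highest for 7. Postnatal day 5 was among the 3 highest for 7 members too. The share of all genes lowest or highest in each library was not counted. In E18.5 mammary, Fos was 5.01-fold lower (exact interval 4.95 to 5.08) and Egr1 4.64-fold lower (4.56 to 4.71) than in the skin library prepared with it, whereas Atf3 was level (482 against 474). These embryonic sums mix cell types, and 41.5% of the E18.5 mammary cells could be assigned to a class.

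**Figure D4:**
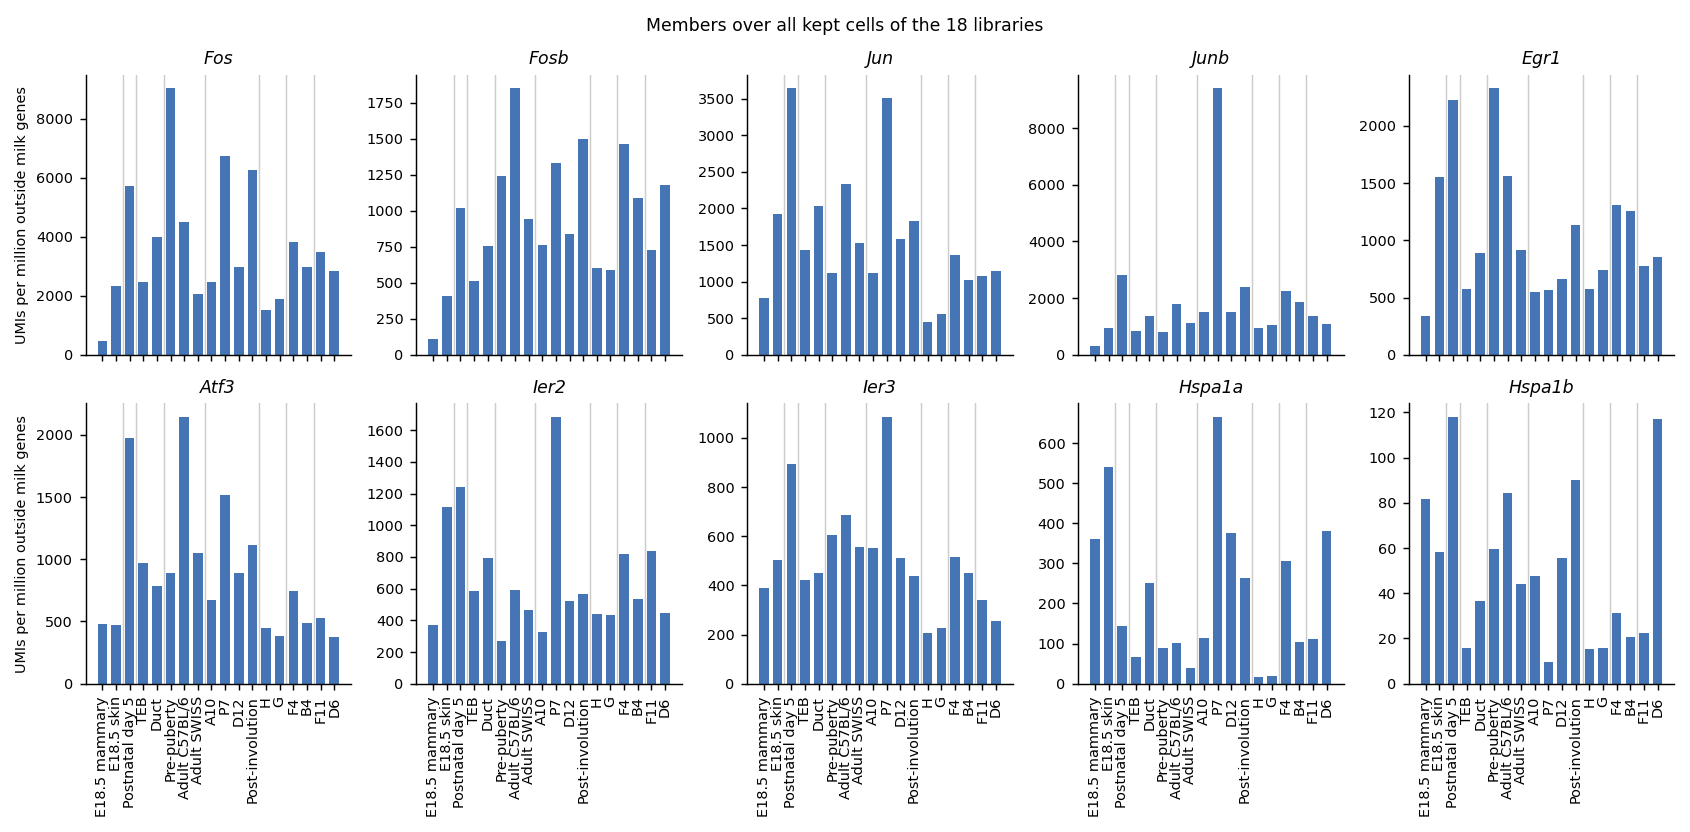
Level of each member over all kept cells (y axis, milk-free CPM, linear from 0) in the 18 libraries (x axis); lines part sets prepared together per the study, where of the 3 FVB/NJ adults beside post-involution only 1 was, and replicates of a stage. E18.5 mammary was lowest for 4 members and P7 highest for 4, with no share of all genes counted.

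Other genes of both pathways were read as counts. Of 24 further immediate early genes, 0 (basal), 12 (LP/alveolar) and 2 (ML) were called over the stages, where 5.98%, 30.3% and 8.24% of all genes were. Their median ratios of stage to replicate range were 0.577, 1.48 and 0.998, against 0.733, 0.974 and 0.803 for all genes. Fosl1, another FOS-family subunit, had the smallest adjusted p in LP/alveolar cells (0.000796, stage range 3.87 on the log2 scale, highest in the adult). The orphan nuclear receptors Nr4a1 (0.00752, 2.12, highest at day 12.5) and Nr4a2 (0.00978, 2.22, highest in the adult) came next, so that Nr4a1, with TMM scaling, was highest in the stage where 9 of 10 members were lowest. ML cells had Ier5 (0.0254, 1.67) and Klf4 (0.0401, 2.04), both highest in the adult and lowest at day 12.5. Of 16 further heat shock and chaperone genes, 0, 2 and 0 were called, with median ratios of 0.768, 1.0 and 0.876, so that each count lay below the share called over all genes. The 2 were Cryab, a small heat shock protein (0.0110, 1.69), and Hspa4, an HSP70-like cochaperone (0.0154, 1.36), both highest in the LP/alveolar cells of the adult.

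Genes whose replicates deviated most like the members' mean were found by correlation over the 9 libraries after the stage means were removed. In basal cells these included Fuca2 (r = 0.999), Serpinb6a, Tlcd1, Sap30 and Gsdmd, in LP/alveolar cells Spata1 (r = 0.975), Clcn4, Tnfrsf1b and Gmppb, and in ML cells Hmgb1 (r = 0.992), Ndufv2, 9530068E07Rik, Fam96a and Arhgap8. The points share P7, without which the ML value of Hmgb1 was 0.897 and the basal value of Fuca2 0.997. Among the members themselves, basal Fos followed the mean of the other 9 with r = 0.955, and 0.960 without P7, whereas basal Junb went from 0.611 to -0.72 without P7. Without P7 the value for Fos went from 0.739 to 0.731 in LP/alveolar cells and from 0.939 to 0.433 in ML cells. These correlations are descriptions over few libraries and carry no p.

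By the GENCODE annotation of GRCm38, Fos (ENSMUSG00000021250) lies at chr12:85473890-85477273 on the + strand, Fosb (ENSMUSG00000003545) at chr7:19302696-19310051 (-), Jun (ENSMUSG00000052684) at chr4:95049034-95052222 (-) and Junb (ENSMUSG00000052837) at chr8:84974484-84978718 (-). Atf3 (ENSMUSG00000026628) lies at chr1:191170296-191218039 (-), Egr1 (ENSMUSG00000038418) at chr18:34859823-34864984 (+), Ier2 (ENSMUSG00000053560) at chr8:84661331-84662852 (-) and Ier3 (ENSMUSG00000003541) at chr17:35821684-35822923 (+). Hspa1a (ENSMUSG00000091971) at chr17:34969190-34972156 (-) and Hspa1b (ENSMUSG00000090877) at chr17:34956436-34959238 (-) are neighbours. Jun, Ier2 and the heat shock pair have a single exon each in this annotation, and so no spliced form.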

How the data were processed

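Single-cell suspensions, sorted to remove blood and endothelial cells (CD31, CD45, TER-119) and enriched by CD24 and CD29 or dissected, were sequenced with 10x Chromium 3-prime kits. The authors deposited raw UMI counts per gene and barcode, made with Cell Ranger (3.1.0 per the file headers for postnatal day 5 and pre-puberty and 3.0.2 for the others; the submitters' processing notes name 3.1.0 and mm10), and exported barcodes with 500 or more reads. Files held whole libraries.

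The study's limits on detected genes (at least 500), UMIs and mitochondrial share kept 132599 of 149371 barcodes; no doublet caller was run beyond the upper limits. Each cell took the class with the highest mean standardized marker score outside 8 milk genes if 2 markers (epithelial) or 3 (other) were detected and the lead was 0.25 or more. The scoring rule was settled after the files were seen, with fixed markers. The members, lists and tests were chosen with earlier results of these data known.

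Counts were summed per library and class with 20 or more cells and fitted over all genes in edgeR 4.0.16 (TMM, filterByExpr, quasi-likelihood, R 4.3.3), with Benjamini-Hochberg adjustment over all genes and a threshold of 0.05. Log2 CPM used a prior count of 2. DESeq2 1.42.0 was an alternative, with library totals, milk genes left out, at least 1000 genes per cell, a lead of 0.5, no gate, no low-count filter, a prior count of 0.5 and each library left out in turn as the others. Where a stage was left with 1 library, its spread was taken from the other stages. The fits were tested on simulated counts: of genes changed 2-fold, 14.4% (basal), 34.0% (LP/alveolar) and 16.0% (ML) were recovered over the stages, and of those changed 4-fold 68.7%, 91.8% and 71.6%. The test of changed class differences recovered 10.4% and 69.6%. For the stage fits, the simulated counts had a fixed negative binomial dispersion of 0.05 and changes in lactation only. That spread was not matched to these pools, so the rates are not the power reached here. Named genes were the members in every comparison and, from each further list, up to 3 called genes per class with the smallest adjusted p. Ratios of single libraries have exact 95% intervals that cover counting error only. Promoters came from RefSeq and gene positions from GENCODE, matched by symbol and Ensembl identifier. Of the genes whose replicates deviated most like the members, 1 is not reported here. The study's bulk and chromatin data were not analysed here.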

Additional observations from a re-analysis of the deposited data

Results flagged for a closer look

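Differences between classes that were not alike in the adult and in pregnancy and lactation are listed here because the test of that difference passed the threshold (edgeR, 9 FVB/NJ libraries, library as a block, adjusted over all genes). Each value is the log2 difference between classes averaged over pregnancy day 12.5, day 18.5 and lactation, minus that of the adult. The test was chosen after the data were seen.

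For basal minus LP/alveolar cells, the values were 2.01 for Jun, 1.69 for Fos, 1.16 for Atf3, 0.96 for Ier3, 0.95 for Junb and 0.89 for Fosb. For basal minus ML cells they were 2.0 for Atf3, 1.87 for Jun, 1.5 for Fos, 1.22 for Junb and 1.15 for Fosb. For LP/alveolar minus ML cells the value was 0.85 for Atf3. Basal cells exceeded LP/alveolar cells in 6 of 6 pregnancy and lactation libraries for Fos, Jun, Junb, Egr1 and Hspa1a. They did so in 5 for Fosb and Ier2, 4 for Ier3, 2 for Atf3 and 1 for Hspa1b. The share of all genes was not counted. Milk transcripts took 8.07% to 72.0% of the UMIs in these 6 libraries and 0.0456% to 1.03% in the 3 adult FVB/NJ libraries. With the milk genes left out of the counts, 6, 5 and 1 members were called, the same counts as with them included.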

How the results depend on the processing

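Members called over the stages (basal 1, LP/alveolar 4, ML 3) came to 0, 9 and 2 with library totals, 0, 3 and 1 with at least 1000 genes per cell, 1, 1 and 1 with no gate, 3, 5 and 4 with no low-count filter, and 7, 8 and 6 with DESeq2. Leaving out 1 library gave 0 to 8, 1 to 8 and 0 to 5 members, and 304 to 1786, 2265 to 6098 and 369 to 1275 of all genes. All genes called moved to 12212 in LP/alveolar cells with library totals, to 3865 with no gate, to 2583 (basal) and 2183 (ML) with no low-count filter and to 2006 (basal) and 1326 (ML) with DESeq2. Members with a stage range above the replicate range fell to 4 in basal cells with library totals, and all such genes came to 11040 (LP/alveolar, library totals), 7763 (no gate) and 5241 (ML, no low-count filter), and to 4642 to 6863 (basal) and 3645 to 5483 (ML) without 1 library.

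Class calls in adult libraries were 1, 2 and 2 members and 3018, 4232 and 2321 genes (basal minus LP/alveolar, basal minus ML, LP/alveolar minus ML) without the library block. With the 10 FVB/NJ libraries 8 members were called for basal minus ML, and log2 differences reversed for Fos (0.74) and Jun (0.42) against LP/alveolar and for Fosb (0.51), Jun (0.33) and Atf3 (0.24) against ML. For the change of class differences, at least 1000 genes per cell gave 2 members for basal minus LP/alveolar, 0 for LP/alveolar minus ML and 940 genes for basal minus ML. Library totals gave 6423 genes for basal minus LP/alveolar, 6162 of them rising. They gave 8 members (0 rising) and 6355 genes (205 rising) for LP/alveolar minus ML, with reversals for Fosb (-0.93), Junb (-0.91), Atf3 (-0.34), Ier2 (-1.10) and Hspa1b (-0.91). Leaving out 1 library gave 3 to 7 members (basal minus LP/alveolar), 0 to 2 members and 1876 to 3497 genes (LP/alveolar minus ML) and 1011 to 1970 genes (basal minus ML). The causes of these changes were not tested. No paired analysis was possible because the stages share no replicate numbers. Depth limits P7 and the ML class of pregnancy and lactation, with 167 to 328 cells per library.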
